A study of Mus musculus with 17 samples.

Results

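Agrp and Npy are 2 of the 23284 genes counted in a single-cell survey of the mouse hypothalamus. Both were taken by gene name from the deposited count table and followed through the cell clusters, through single cells and through the feeding states. Cells were profiled by Drop-seq, which captures polyA RNA in droplets and tags every captured molecule for its cell of origin and, by a unique molecular identifier (UMI), for itself. The food-deprived group was 3 mice kept without food for 24 hours, and the normal group was 5 normally fed mice. All mice were B6D2F1 hybrids of C57BL6 mothers and DBA2 fathers, and the hypothalamus was dissected and dissociated into single cells. The labels used here state neither age nor sex. The labels place the mice in 5 batches: batch 1 holds food-deprived replicate 1 and normal replicate 3, batch 2 holds food-deprived replicate 2 and normal replicate 4, batch 4 holds food-deprived replicate 3, batch 0 holds normal replicates 1 and 2, and batch 3 holds normal replicate 5. Only batches 1 and 2 therefore hold both states.

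AgRP and neuropeptide Y are peptides that arcuate neurons of the hypothalamus release together with GABA, and activity of these neurons drives feeding. AgRP opposes the POMC-derived melanocortins at the receptors MC3R and MC4R, and neuropeptide Y acts on a family of Y receptors. Loss of food is known to raise the RNA of both genes in these neurons, while Npy, unlike Agrp, is also made by other neurons of the brain.

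Of the cells to which the authors gave a cluster name, 14276 were used, with 46904254 UMIs, and 161 were left out because their barcode occurred in more than 1 library. They held 4549 Agrp UMIs and 14421 Npy UMIs. The names comprise 46 clusters, 34 of them neuronal (18 are called GABA, the others Glu or Hista), and a remainder of 2309 cells called zothers. Levels are given as CPM, the UMIs of a gene in the summed cells, scaled to 1000000 UMIs, and each molecule counts once whatever the length of its transcript. Capture may differ between genes, so a ratio of Npy to Agrp UMIs is a ratio of counts. Since the clusters were made from the expression of these same cells, levels by cluster are descriptions without a test.

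Of both genes, Npy matched the RefSeq promoter table used here and Agrp did not, so the upstream sequence of Npy alone is shown. The 250 bases before the annotated start lie at chr6:49822460-49822709 on the plus strand of GRCm38.p6, with a motif ATAAAA and a motif GGGCGG in capitals.
Npy promoter: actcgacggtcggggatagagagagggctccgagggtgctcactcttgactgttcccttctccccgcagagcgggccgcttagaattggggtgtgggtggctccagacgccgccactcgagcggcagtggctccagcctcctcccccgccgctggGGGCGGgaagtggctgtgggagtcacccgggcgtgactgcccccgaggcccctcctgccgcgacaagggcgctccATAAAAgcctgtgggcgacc
The motif ATAAAA began 20 bases before the start and occurred, on either strand, in 16.97% of 32851 promoter windows of the same length. The motif GGGCGG (GC box) began 95 bases before the start and occurred in 32.7% of windows. Others searched on both strands had no match in this window: the TATA box TATAAA (in 12.4% of all windows), the full cAMP response element TGACGTCA (1.55%), its part TGACG (17.8%), which overlaps it, the forkhead motif GTAAACA (3.17%), the STAT motif TTCNNNGAA (7.02%) and the E-box CANNTG (66.2%). The window was 69.2% G or C, against a median of 52.4% over all windows.

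GABA15 was the cluster that carried Agrp. Its 112 cells from 7 mice held 4301 Agrp UMIs, 94.5% of all Agrp UMIs counted. Over the 5 mice with at least 5 GABA15 cells, Agrp averaged 5701 ± 2168 CPM (SD), and the next cluster in order, GABA14, averaged 371 ± 791 CPM over 5 mice. That difference was larger than either SD. From GABA14 down to the last of 33 clusters with at least 3 mice, no 2 neighbours in the order differed by more than the larger of their SDs. Of the 34 neuronal clusters, 17 had no Agrp UMI, 15 had 1 to 3, and only GABA15 and GABA14 had more.

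The Agrp of GABA14 lay almost wholly in 1 cell. Of its 79 Agrp UMIs, 73 came from a single cell of food-deprived replicate 2 with 11402 UMIs, 172 UMIs of Sst (somatostatin) and no Npy UMI. The median GABA14 cell held 4059 UMIs. A second cell of the same mouse, in zothers, held 37 Agrp UMIs, no Npy UMI and 7 Gad2 UMIs. These cells were singled out after their values were seen, no doublet caller was run, and whether they hold 1 cell each was not tested. The other neurons outside GABA15 with any Agrp had 1 or 2 UMIs each.

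**Figure D1:**
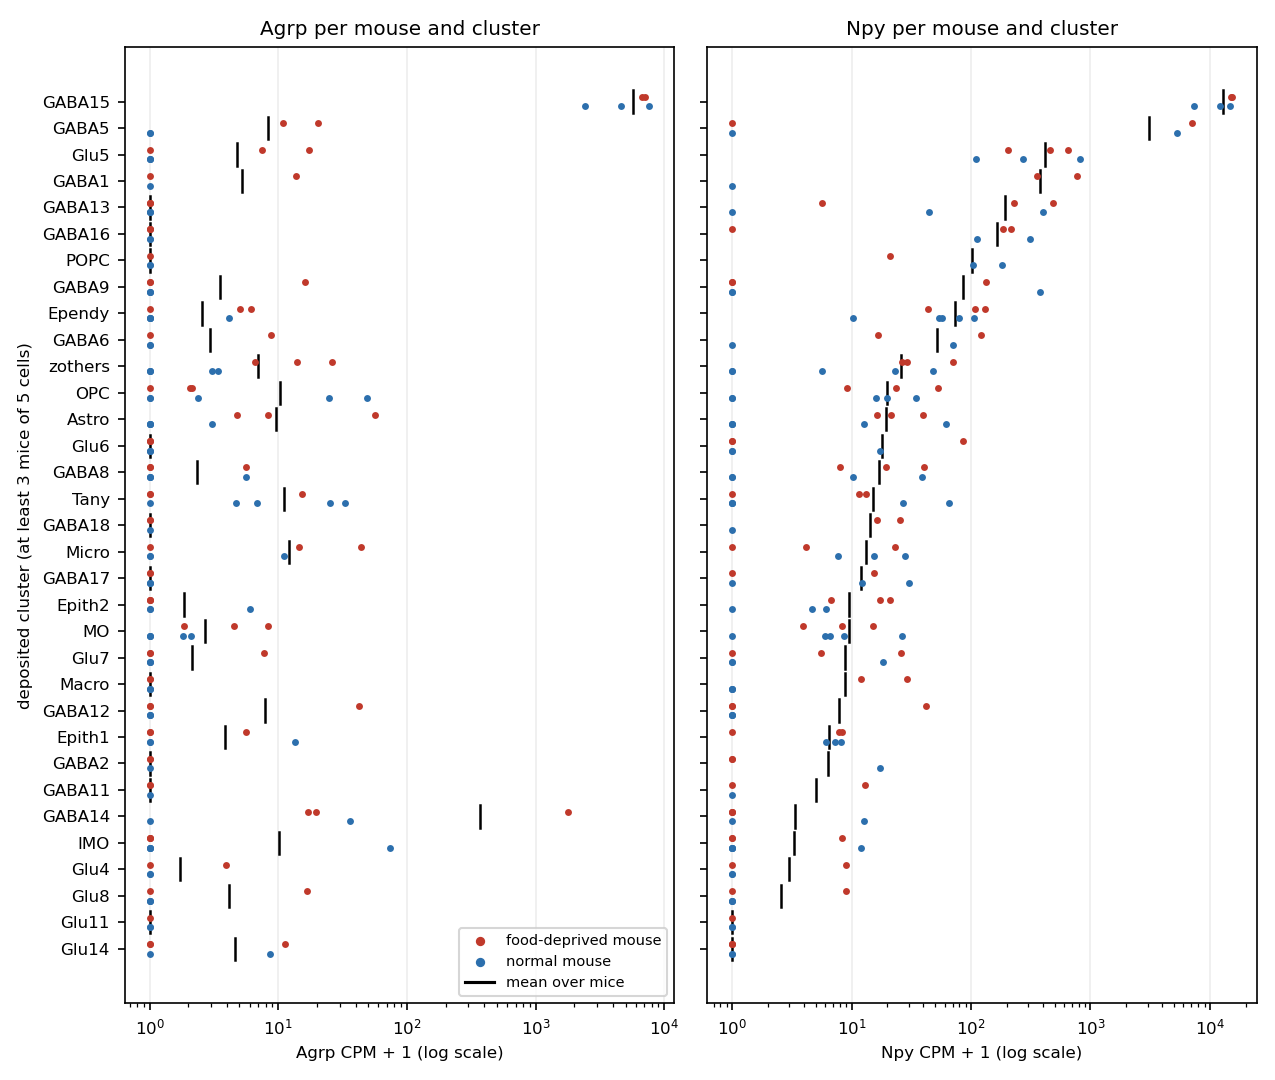
Agrp (left) and Npy (right) in CPM + 1 on a log axis for the 33 clusters in which at least 3 mice had 5 cells, ordered by mean Npy. Points are mice and black bars their means. GABA15 stands alone for Agrp, while Npy declines over several clusters, and the single high GABA14 point is food-deprived replicate 2.

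Npy was highest in the same cluster but was not limited to it. GABA15 held 10304 Npy UMIs, 71.5% of all, at 12874 ± 3363 CPM (SD, n = 5 mice). GABA5 followed at 3081 ± 3635 CPM (n = 4), and the step between both was larger than either SD. Below GABA5 came Glu5 at 417 ± 274 CPM (n = 6), GABA1 at 376 ± 387 CPM (n = 3), GABA13 at 192 ± 210 CPM (n = 6) and GABA16 at 165 ± 117 CPM (n = 5). No neighbours in the order below GABA15 differed by more than the larger SD. Of the 34 neuronal clusters, 8 had no Npy UMI, 11 had 1 to 3 and 15 had more.

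The Npy of GABA5 was a matter of few cells and 1 batch. In food-deprived replicate 1, 12 of 30 GABA5 cells held 1443 Npy UMIs, and in normal replicate 3, 2 of 30 cells held 973, both mice being of batch 1. The 7 GABA5 cells of food-deprived replicate 2, the 5 of normal replicate 4 and the 1 of normal replicate 5 held none. A single cell of normal replicate 3 held 943 Npy UMIs and another, of food-deprived replicate 1, held 633.

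The Npy-rich GABA5 cells differed from the other cells of their cluster in a set of further genes, a split chosen after the values were seen and given without a test. The 11 GABA5 cells with at least 10 Npy UMIs held Sst, the somatostatin gene, at 44958 CPM, against 313 CPM in the 59 GABA5 cells without Npy. Sst was detected in 11 of those 11 cells and in 10 of the 59. Crhbp, the CRH-binding protein, stood at 576 against 2.63 CPM, and Chodl (chondrolectin) at 376 against 5.26 CPM. Calb1 (calbindin) was found in 9 of the 11 cells and 4 of the 59, and Nos1 (neuronal nitric oxide synthase) in 2 of the 11 and in none of the 59, from 5 UMIs in all. Penk (proenkephalin) ran the other way, at 87.7 CPM in the Npy-rich cells and 1400.4 CPM in the cells without Npy. Of the GABA-synthesis enzymes, Gad1 stood at 401 against 871 CPM and Gad2 at 1641 against 1695 CPM. As background, Sst, Npy, Nos1 and Chodl together mark a class of interneurons known from the cortex and striatum. Agrp had no UMI in any of the 11 Npy-rich cells, and GABA5 as a whole held 3 Agrp UMIs in 3 cells.

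Glu5, a glutamatergic cluster, held 442 Npy UMIs, 3.06% of all. An Npy UMI was found in 62 of its 199 cells (31.2%, exact 95% interval 24.8% to 38.1%). Per mouse, Glu5 held 647, 453 and 203 CPM of Npy in food-deprived replicates 1, 2 and 3, against 109, 817 and 272 CPM in normal replicates 2, 3 and 5. The groups overlapped fully. The Glu5 cells with Npy were deeper, with a median of 4493.5 UMIs, than those without, with 2461 UMIs. Cartpt, which encodes the CART peptide, stood at 3255 CPM in the Npy cells and at 3077 CPM in the others. Agrp was counted 3 times in all Glu5 cells.

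Outside neurons, Npy was found most often in Ependy cells, the cluster highest for the ependymal markers Ccdc153, Tmem212 and Foxj1. An Npy UMI was found in 70 of 412 Ependy cells (16.99%, exact 95% interval 13.5% to 21.0%, median 2364 UMIs a cell). The oligodendrocyte cluster MO, highest of all for Mog, Mobp and Mag and a type that should lack Npy, was taken for comparison. There, 60 of 3501 cells had an Npy UMI (1.71%, median 2195 UMIs a cell). With every cell thinned to 1000 UMIs the shares were 7.82% and 0.750%. The 34 Ependy and 252 MO cells below that depth were left out. How much of the Npy counted outside neurons came from free RNA was not tested.

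The Ependy share was seen in each mouse. It was 15.6%, 27.9% and 19.2% in food-deprived replicates 1 to 3, against 15.4%, 10%, 5.88%, 20.9% and 14.2% in normal replicates 1 to 5, so the states overlapped. In normal replicates 1 to 3 the share rested on only 2 of 13, 1 of 10 and 2 of 34 cells. It was above the MO share in 8 of 8 mice, also after thinning, and above that of tanycytes (Tany), the cells lining the floor of the third ventricle, in 7 of 8 mice and in 6 of 8 after thinning. Single Ependy cells held at most 5 Npy UMIs. The balance of both genes also differed from that of GABA15: Agrp made up 3 of 117 Agrp and Npy UMIs in Ependy (2.56%, exact interval 0.532% to 7.31%) and 29.4% in GABA15 (28.7% to 30.2%). These intervals cover counting error only, and UMIs of 1 cell are not independent. A low Agrp part was not particular to Ependy. It was 4.67% in oligodendrocyte precursors and 3.02% in neurons outside GABA15, but 36.4% in Tany and 37.0% in microglia.

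The small cluster POPC had an Npy UMI in 4 of 51 cells (7.84%, exact interval 2.18% to 18.9%, 3.10% after thinning), and its mean Npy level, 102 ± 80.8 CPM over 3 mice, was above the 72.6 ± 39.8 CPM of Ependy by less than the larger of their SDs. Larger glial and vascular classes had lower shares, at 4.04% of cells in oligodendrocyte precursors (OPC), 3.16% in astrocytes, 2.48% in Tany, 1.94% in microglia and 1.68% in the Epith clusters, which lead for endothelial and mural markers. After thinning, OPC stood at 2.11%, astrocytes at 2.15% and Tany at 1.02%. An Agrp UMI was found in 53 of 9670 named non-neuronal cells (0.548%, median 1921 UMIs a cell), against 28 of 2185 neurons outside GABA15 (1.28%, median 3891 UMIs a cell). The highest non-neuronal Agrp share was 1.65%, in Tany.

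**Figure D2:**
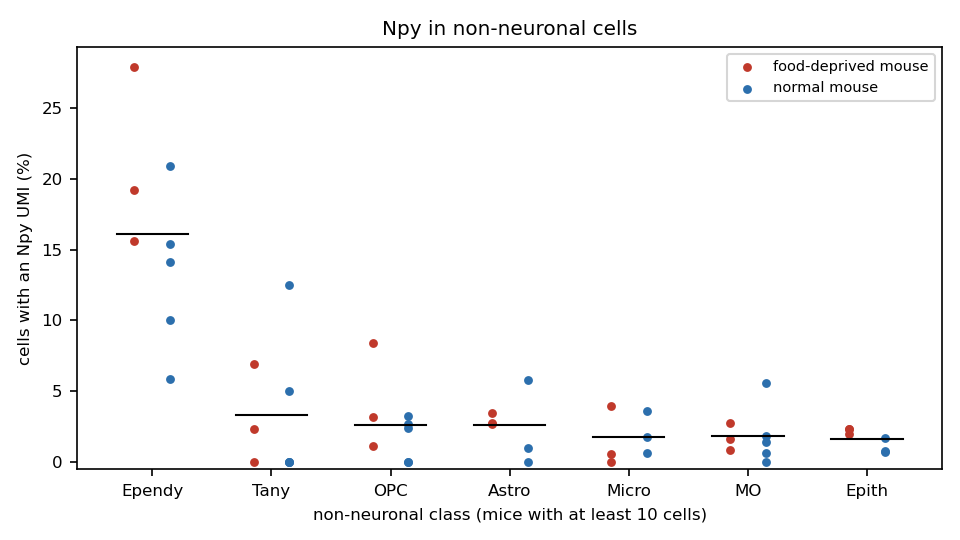
Percent of cells with an Npy UMI in non-neuronal classes, 1 point per mouse, with means. Ependy averaged 16.1 ± 6.74% over 8 mice (SD), and its points lie above those of MO in 8 of 8 mice.

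Within GABA15, Agrp and Npy were found in the same cells. All 112 cells held Npy (100%, exact 95% interval 96.8% to 100%) and 108 held Agrp as well (96.4%, 91.1% to 99.0%), while no cell held Agrp without Npy. After thinning to 1000 UMIs, which left 108 cells, the expected shares were 89.3% for Agrp, 98.7% for Npy and 88.7% for both. Of the 4 cells with Npy alone, 3 came from normal replicate 2 and 1 from normal replicate 5.

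The median GABA15 cell held 20 Agrp UMIs (quartiles 7 and 57.25) and 53 Npy UMIs (quartiles 21 and 131). The highest cell held 254 Agrp UMIs, and the highest for Npy held 536. Npy counts exceeded Agrp counts in 101 of the 112 cells, were equal in 6 and were lower in 5. Summed over the cluster there were 2.40 Npy UMIs per Agrp UMI. The cells themselves ranged over 904 to 24564 UMIs in total.

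Cells with more Agrp also held more Npy within a mouse, to differing degrees. On the log2(CPM + 100) scale Pearson's r across cells was 0.71 in food-deprived replicate 1 (27 cells), 0.75 in food-deprived replicate 3 (20 cells), 0.65 in normal replicate 2 (15 cells) and 0.34 in normal replicate 5 (38 cells). Spearman's rho was 0.44, 0.68, 0.71 and 0.16 in the same mice. Cells of 1 mouse share its libraries and are not replicates, so these are descriptions. Normal replicate 5 had the shallowest GABA15 cells, with a median of 3154.5 UMIs, against 8192, 5421.5 and 4201 in the other mice.

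**Figure D3:**
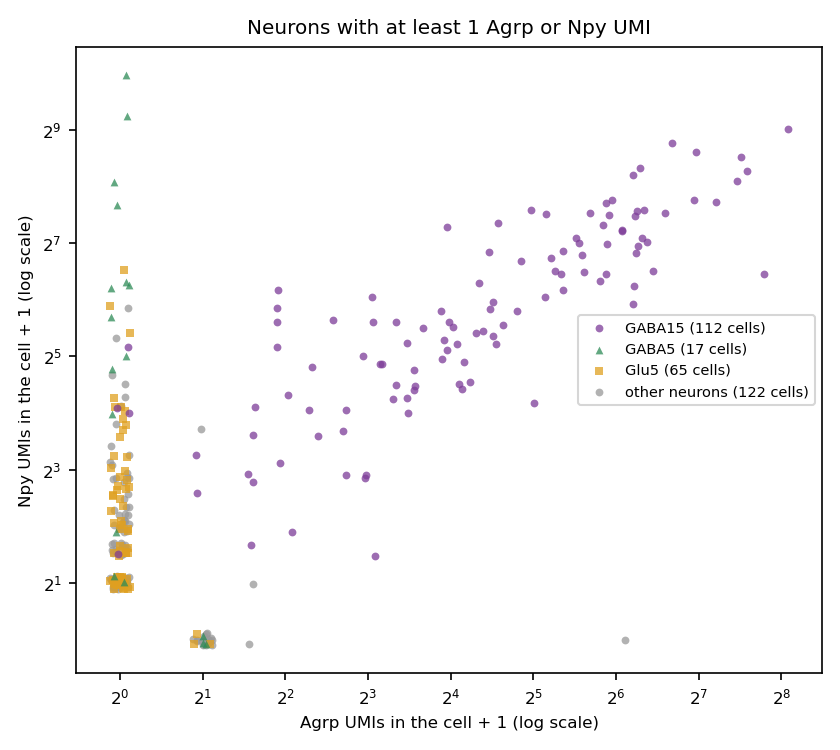
Npy against Agrp, in UMIs + 1 on log axes, for each neuron with at least 1 UMI of either gene, coloured by cluster and with points slightly spread. The GABA15 cells run along both axes together, while the Npy-rich cells of GABA5 lie at 0 Agrp UMIs and the single GABA14 cell with 73 Agrp UMIs lies at 0 Npy UMIs.

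Outside GABA15 few neurons held both genes. Of the other 2185 neurons, 2 held both, 26 held Agrp alone, 176 held Npy alone and 1981 held neither. Only 3 of the 28 with Agrp held 2 or more Agrp UMIs. The clusters were made from the expression of these cells, so a cell high in both genes may be placed in GABA15. These counts therefore cannot show whether both genes part outside it. Of all neurons with an Agrp UMI, 80.9% of 136 also held Npy, and at 5 UMIs or more of each gene 97.8% of 92 did. Of the 290 neurons with an Npy UMI, 37.9% held Agrp.

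Of 18 genes known from arcuate AgRP neurons, 13 were higher in GABA15 than in the other neurons and 5 were lower, by levels over all cells. The lower ones were Slc32a1 (139.6 against 246 CPM), Gad1 (309 against 319 CPM), Insr (6.78 against 12.6 CPM), and Htr2c and Kiss1r, which had no UMI in GABA15. The levels that follow are means over the 5 mice (± SD). Gad1 and Gad2, both GABA-synthesis enzymes, stood at 317 ± 88.9 and 617 ± 173 CPM, and summed GABAergic markers spanned 869 to 1126 CPM in food-deprived and 884 to 1378 CPM in normal mice. The glutamatergic marker Slc17a6 reached at most 25.6 CPM in food-deprived and 46.7 CPM in normal mice. Sst averaged 1296 ± 694 CPM, Serpina3n, a secreted protease inhibitor, 1019 ± 386 CPM, Asb4, a ubiquitin ligase subunit, 372 ± 181 CPM, and Isl1, a transcription factor of arcuate neurons, 278 ± 45.8 CPM. Serpina3n, and Otp at 12.2 CPM over all GABA15 cells, were highest in GABA15 among all clusters.

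Of the receptors for both peptides, Npy2r, the Y2 receptor by which NPY neurons sense their own peptide, was the main one in GABA15. It averaged 194 ± 65.9 CPM (SD, n = 5), was found in 62.5% of cells and was higher there than in any other cluster. Mc3r, a melanocortin receptor, averaged 27.1 ± 16.5 CPM, Npy1r 16.9 ± 13.4 CPM and Npy5r 5.91 ± 5.62 CPM, the last from 5 UMIs. Mc1r was counted once. Of the 10 receptor genes listed, 3 were higher in GABA15 than in the other neurons and 4 were lower, by levels over all cells. The lower ones were Npy1r (16.3 against 27.1 CPM), Npy5r (6.78 against 11.4 CPM), Mc4r (0 against 8.17 CPM) and Npy6r (0 against 1.28 CPM). In GABA15, 5 of the 10 had no UMI.

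The 7 melanocortin partners were all lower in GABA15 than in the other neurons, as were 9 of 12 genes for peptide processing, while 8 of 11 transcription regulators were higher, by levels over all cells. Among the partners, Cartpt averaged 719 ± 191 CPM in GABA15 and Pomc, the melanocortin precursor, 59.5 ± 36.0 CPM, against 29266 CPM of Pomc in Glu13. Mrap2, an accessory protein of melanocortin receptors, averaged 76.6 ± 41.98 CPM. Of the genes for peptide processing and storage, Pcsk1n (proSAAS) was highest in GABA15 of all clusters, at 6043 CPM over all its cells. The granins Scg2 and Scg5 averaged 2455 ± 556 and 1166 ± 218 CPM. Of the transcription regulators, Nr3c1, the glucocorticoid receptor, averaged 302 ± 106 CPM and Foxo1, which is known to drive Agrp, 69.2 ± 33.2 CPM. Immediate early genes, which report recent activity and also answer to dissociation, were mixed: 10 of 16 were higher in GABA15 than in the other neurons and 6 were lower. Fos averaged 2517 ± 786 CPM and Jun 2003 ± 721 CPM, while Npas4 (115 against 189 CPM over all cells), Arc (20.3 against 39.1 CPM), Nr4a1 (17.6 against 36.4 CPM), Fosl2 (6.78 against 10.3 CPM), Nr4a2 (1 UMI) and Nr4a3 (no UMI) were the lower ones. Fos was higher still in non-neuronal cells, at 3797 CPM.

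Astrocyte and tanycyte markers were low in GABA15. The 4 astrocyte markers summed to 25.6 to 68.5 CPM in food-deprived and 0 to 32.1 CPM in normal mice, and the 4 tanycyte markers to 29.96 to 42.6 CPM in food-deprived and 6.43 to 37.4 CPM in normal mice. The 4 neuron markers summed to 1789 to 2213 CPM in food-deprived and 1620 to 2757 CPM in normal mice. Ependymal markers summed to 17.04 to 21.4 and 19.3 to 24.9 CPM, endothelial to 0 to 25.7 and 0 to 11.7 CPM, and newly formed oligodendrocyte markers to 34.1 to 89.9 and 23.4 to 90.01 CPM, in food-deprived and in normal mice. Those of microglia, macrophages, mural cells, oligodendrocyte precursors and pituitary reached at most 8.56 CPM in food-deprived and 12.5 CPM in normal mice. The histaminergic marker Hdc was at 0 in every one of these mice, and the blood markers were at 0 in every cluster, so they give no check. The part of RNA from other cell types in the results on GABA15 was not tested.

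Genes were ranked by how closely their levels over clusters followed those of Agrp or Npy. Over 41 clusters and 10359 genes, Pearson's r of log2(CPM + 1) with Agrp was highest for Fam150b, a ligand of the receptor ALK (r = 0.63), Sst (0.52), Acvr1c, an activin-type receptor (0.48), Pth2r (0.47) and Cited1, a transcription coactivator (0.45). Serpina3h, Krtap17-1, Rere, Serpina3n and 4732456N10Rik followed at 0.42 to 0.39. Cited1 stood at 1855 CPM and Acvr1c at 178 CPM in GABA15, the highest of any cluster. With Npy, Slc25a5, a mitochondrial ADP/ATP carrier, came first (0.56), then Ppa2 (0.52), Pik3ca (0.51), Rnf152 (0.51), 2900092E17Rik (0.51), Kcnab3 (0.50), Cox6c (0.49), Rpp25 (0.48), E4f1 (0.47) and Pvrl4 (0.47). The r between Agrp and Npy was 0.39, rank 13 from Agrp and rank 58 from Npy. Of the 34 neuronal clusters, 17 had no Agrp UMI and 15 had 1 to 3, and 73 of the 79 in GABA14 came from 1 cell. The r with Agrp thus rests largely on counts near the floor and on that cell. GABA14 was the second highest cluster for Sst and Pth2r, and Pth2r had 3 UMIs in GABA15. Clusters share libraries and many are small, so these are descriptions.

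Food deprivation was compared across mice, first within GABA15. Agrp levels were 6677 and 7104 CPM in food-deprived replicates 1 and 3, against 7674, 4646 and 2405 CPM in normal replicates 2, 3 and 5. Npy levels were 15285 and 14949 CPM in food-deprived replicates 1 and 3, against 14740.4, 12094 and 7304 CPM in normal replicates 2, 3 and 5. For Agrp the highest mouse was normal replicate 2, so the groups overlapped. For Npy both food-deprived mice lay above the 3 normal mice, but the nearest values, 14949 and 14740.4 CPM, were close. How many of all genes stood apart in this way is not given here. Food-deprived replicate 2 and normal replicate 4 had 3 GABA15 cells each and were not tested, with 10382 against 5020.4 CPM of Agrp and 27891 against 21329 CPM of Npy. In Npy, normal replicate 4 thus lay above both tested food-deprived mice.

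Neither gene passed the test in GABA15. The log2 fold change was 0.48 ± 0.42 for Agrp and 0.40 ± 0.32 for Npy (SE), with adjusted p = 0.999 for both by edgeR's quasi-likelihood test with Benjamini-Hochberg adjustment over 2898 genes. No gene passed in that comparison (0%), 42 had an unadjusted p under 0.05, and DESeq2 called 0. Within batch 1 the food-deprived mouse had 1.44 times the Agrp and 1.26 times the Npy of the normal mouse, and within batch 2, on 3 cells each, 2.07 and 1.31 times. Without normal replicate 2 the log2 fold change of Agrp was 0.96 ± 0.30 and that of Npy 0.63 ± 0.24 (SE). Without normal replicate 5, the normal mouse with the lowest levels, they fell to 0.16 ± 0.43 and 0.17 ± 0.43 (SE). Replicates are separate mice by the labels.

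**Figure D4:**
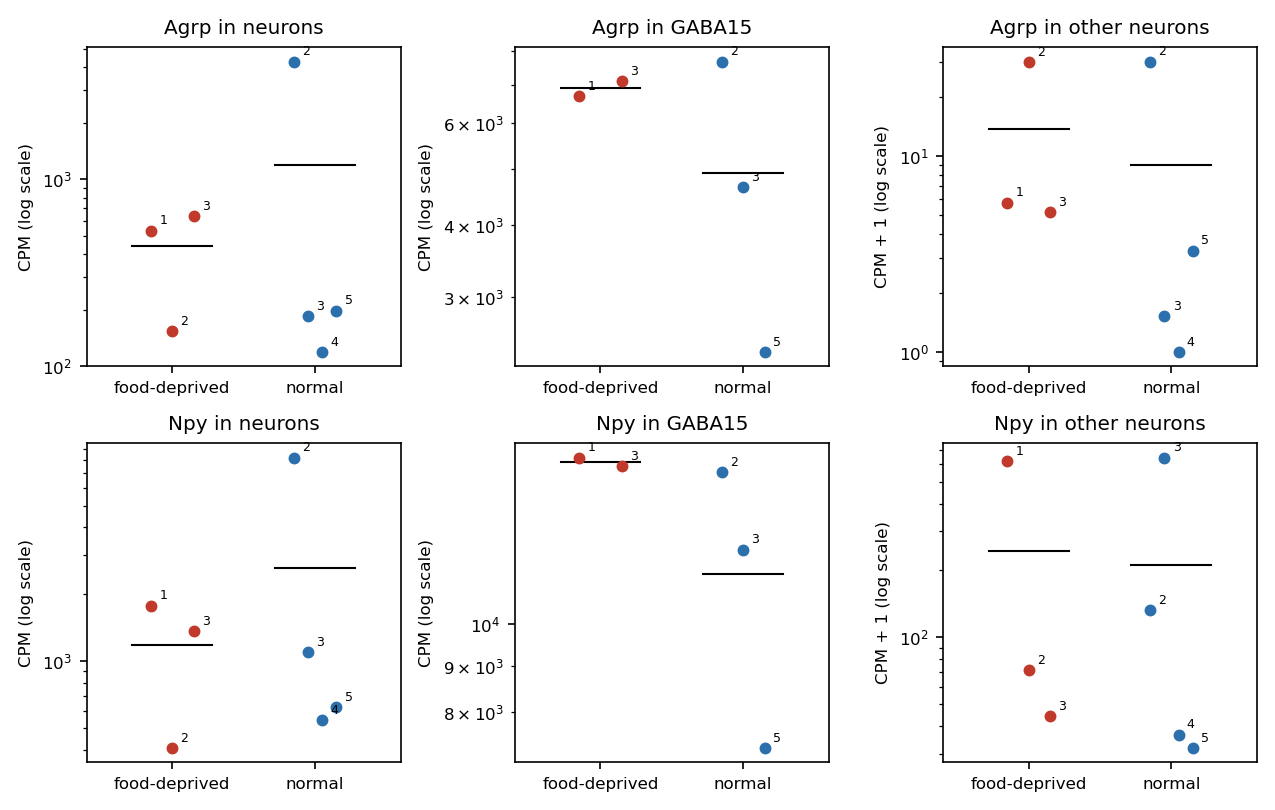
Agrp and Npy in CPM on log axes per mouse (numbered by replicate) in all neurons, in GABA15 and, as CPM + 1, in neurons outside GABA15, food-deprived mice left of normal mice. Bars are means. Normal replicate 2 is the highest neuron point of both genes, at 4277 CPM of Agrp and 8249.6 CPM of Npy.

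Over all neurons the level joins the Agrp of each cell with the share of GABA15 cells among neurons. Agrp levels were 532, 155 and 634 CPM in food-deprived replicates 1 to 3, against 4277, 186, 119 and 198 CPM in normal replicates 2 to 5. Npy levels were 1778, 407 and 1366 CPM in food-deprived replicates 1 to 3, against 8249.6, 1101, 541 and 624 CPM in normal replicates 2 to 5. Normal replicate 2, with 41 neurons, lay far above every other mouse, and the groups overlapped. Normal replicate 1 had 19 neurons, too few for the test, and no UMI of either gene, where 3 counts would be 47.9 CPM.

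Across neurons neither gene passed. The log2 fold change was -1.42 ± 1.13 for Agrp and -1.17 ± 0.89 for Npy (SE, adjusted p = 1.00 each by edgeR's quasi-likelihood test with Benjamini-Hochberg adjustment). Of 10923 genes tested none passed (0%), 232 had an unadjusted p under 0.05, and DESeq2 called 0. The sign rested on normal replicate 2: without it the log2 fold changes were 1.39 and 0.66. With batch as a block they were 0.99 for Agrp (adjusted p = 0.360) and 0.17 for Npy. Within batch 1 the food-deprived mouse had 2.86 times the Agrp and 1.62 times the Npy of the normal mouse, and within batch 2 it had 1.30 and 0.752 times.

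The share of GABA15 among neurons was also highest in normal replicate 2. Among the other mice, normal replicate 5 had the highest share, while food-deprived replicate 3 had the highest Agrp level. GABA15 held 81.4% to 100% of the Agrp UMIs of neurons in the tested mice. The share of GABA15 was 5.41%, 0.746% and 5.90% in food-deprived replicates 1 to 3, against 36.6%, 1.69%, 1.52% and 8.54% in normal replicates 2 to 5. The means were 4.02 ± 2.84% and 12.1 ± 16.7% (SD, n = 3 and 4 mice), a difference of -8.07 points (two-sided exact permutation test, p = 0.629, with 0.0571 the smallest p possible). Normal replicate 2 held 15 GABA15 cells among its 41 neurons, and without it the difference was 0.101 points. The summed share of 3 other clusters, GABA11, Glu11 and Glu13 (the cluster with the most Pomc), was 2.40%, 2.24% and 8.26% in food-deprived replicates 1 to 3, against 4.88%, 2.25%, 3.55% and 7.19% in normal replicates 2 to 5. In normal replicate 2 this share was 2 GABA11 cells of 41 neurons, with no Glu11 or Glu13 cell. That is too few to place this mouse against the others. What set the GABA15 share of a mouse was not tested.

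**Figure D5:**
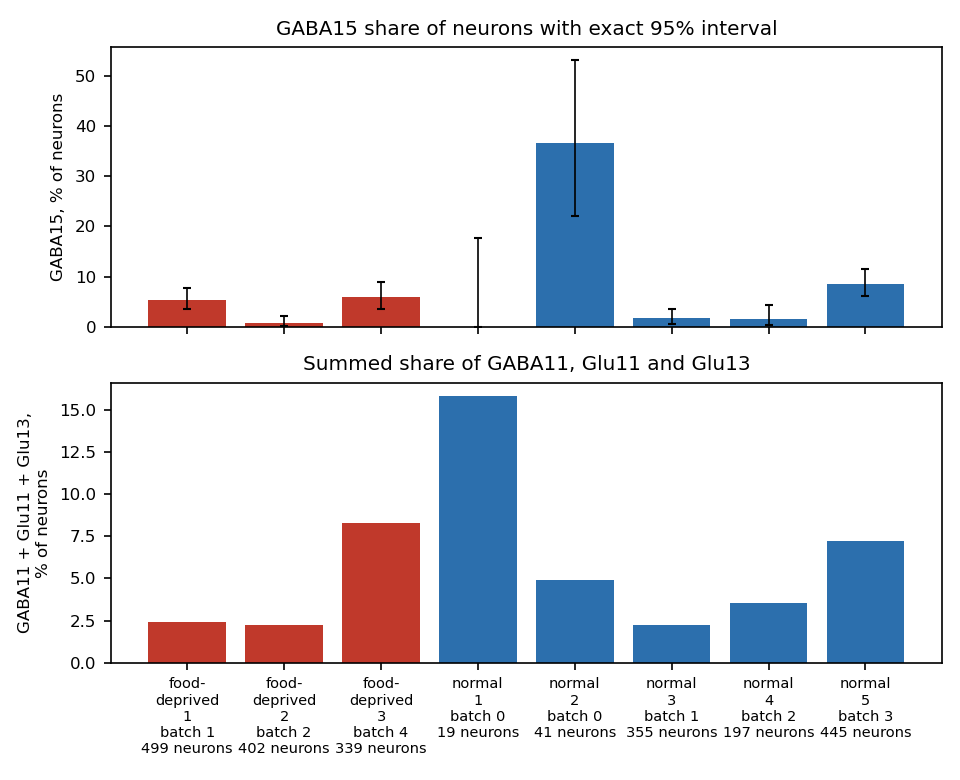
Upper bars give GABA15 cells as a percent of neurons in each mouse with exact 95% intervals, and lower bars the summed percent of GABA11, Glu11 and Glu13, with food-deprived mice left of normal mice. Normal replicate 2 lies at 36.6% in the upper panel, and the other tested mice lie between 0.746% and 8.54%.

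The balance between both genes in GABA15 was compared as a ratio, which does not depend on the UMI total. There were 2.29 and 2.10 Npy UMIs per Agrp UMI in food-deprived replicates 1 and 3, against 1.92, 2.60 and 3.04 in normal replicates 2, 3 and 5. Both food-deprived mice lay within the range of the normal mice. The mean log2 Agrp to Npy ratio was -1.13 ± 0.09 in food-deprived and -1.31 ± 0.34 in normal mice (SD), a difference of 0.17 (two-sided exact permutation test, p = 0.6, with 0.2 the smallest p possible). As a mean over cells in place of summed UMIs, the ratio was -1.12 ± 0.06 in food-deprived and -1.74 ± 0.26 in normal mice, a difference of 0.62 (exact permutation p = 0.2, the smallest possible).

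In neurons outside GABA15, Npy levels were 620.0, 70.1 and 43.1 CPM in food-deprived replicates 1 to 3, against 131, 643, 35.5 and 30.8 CPM in normal replicates 2 to 5. Both high mice were those of batch 1 with Npy-rich GABA5 cells. The single highest cell gave 37.5% of the Npy UMIs of food-deprived replicate 1 and 76.0% of those of normal replicate 3. The log2 fold change was 0.17 ± 0.99 (SE, adjusted p = 1.00 by edgeR's quasi-likelihood test with Benjamini-Hochberg adjustment), and no gene of 10724 passed (0%), with 221 at an unadjusted p under 0.05 and 0 called by DESeq2. Without GABA5, a choice made after seeing the data, it was -0.093. Agrp did not pass the low-count filter there: 4.77, 29.0 and 4.15 CPM were counted in food-deprived replicates 1 to 3, against 29.2, 0.518, 0 and 2.28 CPM in normal replicates 2 to 5. The groups overlapped, and 73 of the 77 Agrp UMIs of food-deprived replicate 2 came from the 1 GABA14 cell. With no filter, edgeR's quasi-likelihood test gave a log2 fold change of 3.17 ± 0.73 (SE, unadjusted p = 9.2e-05, Benjamini-Hochberg adjusted p = 0.200), and DESeq2 gave 1.91 ± 1.74 (adjusted p = 1.00). Whether the effect differed between GABA15 and other neurons was not tested.

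Over all cells the log2 fold change was -1.43 ± 1.42 for Agrp and -1.16 ± 1.25 for Npy (SE, adjusted p = 1.00 each by edgeR's quasi-likelihood test with Benjamini-Hochberg adjustment). Agrp levels were 128, 46.4 and 236 CPM in food-deprived replicates 1 to 3, against 6.88, 1695, 43.2, 29.1 and 72.6 CPM in normal replicates 1 to 5. No gene of 14143 passed (0%), 117 had an unadjusted p under 0.05, and DESeq2 called 0.

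None of the genes of the 7 lists passed in any of these comparisons as first fitted. With batch as a block, edgeR's quasi-likelihood test with Benjamini-Hochberg adjustment called Pomc (log2 fold change 2.58 ± 0.27 SE, adjusted p = 0.0022), Ghrh, the growth hormone-releasing hormone (1.62 ± 0.23, adjusted p = 0.027), and Tac2, the neurokinin B precursor (-1.67 ± 0.19, adjusted p = 0.0031) in neurons. The same 3 passed in neurons outside GABA15, with Nr4a2 at -1.91 ± 0.32 (adjusted p = 0.049), and Pomc passed in all cells at 1.89 ± 0.23 (adjusted p = 0.0078). These fits called 8 of 10923 genes in neurons, 13 of 10724 in neurons outside GABA15 and 20 of 14143 in all cells. With the block, states were compared only within batches 1 and 2, which alone hold both. The same edgeR fits also called Gapdh, at 2.10 ± 0.30 in neurons (adjusted p = 0.027) and 2.09 ± 0.31 in neurons outside GABA15 (adjusted p = 0.029). Gapdh differed strongly between libraries, as given below, and whether this bore on the other calls was not tested. The values below are without the block. In GABA15, 9 of 9 immediate early genes tested had a negative log2 fold change, with a median of -0.41 beside -0.0018 over all genes, among them Egr1 at -0.68 ± 0.40 and Fos at -0.21 ± 0.38 (SE). Over neurons 14 of 14 were negative, with a median of -0.38. Of 11 genes for peptide processing tested in GABA15, 8 were positive, with a median of 0.16. Pomc stood at 1.32 ± 0.66 in GABA15, and Npy2r, the 1 receptor gene tested there, at 0.22 ± 0.41. Of 8 AgRP neuron genes tested there, 1 was positive, Sst at 0.54 ± 0.46, and the median was -0.13. The 3 transcription regulators tested there were all negative, with a median of -0.44.

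Facts of the libraries bear on these comparisons. Cells per mouse ranged from 1286 to 3639 in food-deprived and from 129 to 2565 in normal mice, and UMIs from 3698233 to 12570644 and from 290861 to 8958225. The 17 libraries fell into 8 with Gapdh at 146 to 807 CPM and 9 with Gapdh at 4.25 to 8.20 CPM and fewer ribosomal protein UMIs. Batches 0, 3 and 4 hold libraries of the first kind only. On the second kind alone the neuron log2 fold changes were 0.82 for Agrp and 0.10 for Npy, and on the first kind alone they were -1.91 and -1.55. Normal replicate 2 was in the fit on the first kind and not in that on the second. Library kind and this mouse therefore cannot be told apart here.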

How the data were processed

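Hypothalamic cells of 3 food-deprived and 5 normal mice were profiled by Drop-seq in 17 libraries. The authors deposited raw UMI counts per gene and cell and a table of cluster names. The build is mm9, per the submitters' processing notes; the aligner and counter were not given in the sources used here. Named cells were joined to libraries by barcode, and 161 cells whose barcode occurred in more than 1 library were left out. No doublet caller was run. UMIs were summed per mouse and tested with edgeR 4.0.16 (R 4.3.3; TMM, filterByExpr, quasi-likelihood F test, Benjamini-Hochberg threshold 0.05), with at least 20 cells a mouse, or 5 for GABA15. DESeq2 1.42.0, other filters, batch, library types and left-out mice were alternatives. Steps were tested on simulated data. Intervals are Clopper-Pearson; with intervals and the limits from a count of 0, they cover counting error only. Named genes are both members, the 10 most alike to each by cluster and, of each list, at most 6 of the highest in GABA15. Members and lists were chosen with earlier results of these data known. Gm38250, a predicted gene, overlaps Agrp in RefSeq, so their reads may not be told apart. The summed markers of 1 cell type are not reported here.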

Additional observations from a re-analysis of the deposited data

Results flagged for a closer look

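Among normal mice, 6 values stood far from the nearest other mouse relative to the range of their group, by a criterion that chance meets in about 1 in 20 groups. Normal replicate 2 gave 4 of them: Agrp at 4277 CPM and Npy at 8249.6 CPM in neurons, and Agrp at 1695 CPM and Npy at 3269 CPM in all cells. This mouse had 158 cells, of which 15 were GABA15. It also gave the highest Agrp in neurons outside GABA15, 29.2 CPM, which rests on 2 UMIs, below the 43.8 CPM that 3 counts would be. Npy in neurons outside GABA15 was 643 CPM in normal replicate 3, where 1 GABA5 cell held 943 of 1241 UMIs, and 155 CPM without that cell.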

How the results depend on the processing

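No alternative gave Agrp or Npy an adjusted p under the threshold. In GABA15 both kept a positive log2 fold change under 11 of 11 alternatives. In GABA15 and in neurons, leaving out batch 0 and leaving out normal replicate 2 gave the same fit, counted separately. In neurons the sign turned for Agrp and Npy with batch as a block (0.99 and 0.17), on libraries with low Gapdh alone (0.82 and 0.10), and without batch 0 or normal replicate 2 (1.39 and 0.66 in both cases). In all cells it turned under the same settings, to 1.17 and 0.31 with the block, 0.93 and 0.19 on low-Gapdh libraries, 1.47 and 0.72 without batch 0, and 1.64 and 1.05 without normal replicate 2. Npy in other neurons turned to -0.093 without GABA5, -1.90 without food-deprived replicate 1, -0.21 without normal replicate 4 and -0.23 without normal replicate 5. The difference in GABA15 share turned to 1.47 points within batches 1 and 2, 0.809 on low-Gapdh libraries and 0.101 without normal replicate 2. The cause was not tested.

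Leaving out each mouse in turn, the log2 fold changes spanned -1.83 to 1.39 (Agrp) and -1.55 to 0.66 (Npy) in neurons, 0.16 to 0.96 and 0.17 to 0.63 in GABA15, -2.07 to 1.64 and -1.49 to 1.05 in all cells, and -1.90 to 2.64 for Npy in other neurons. The share difference spanned -11.6 to 0.101 points and the log2 ratio 0.03 to 0.36. Genes called numbered 0 in the main fits. With the batch block there were 8 in neurons, 13 in other neurons and 20 in all cells; on low-Gapdh libraries 3 in neurons and 3 in other neurons; with no low-count filter 1 in GABA15 and 3 in other neurons; and 1 in other neurons without food-deprived replicate 3. Neither Agrp nor Npy was among them.

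Agrp in other neurons failed the low-count filter; it was tested with no filter (3.17), by DESeq2 (1.91), and without food-deprived replicate 1 (3.58) or 3 (3.49), with adjusted p of 0.200 to 1.00. DESeq2 gave no adjusted p for Agrp in neurons and all cells. In GABA15 the batch block and the low-Gapdh libraries could not be fitted. No paired analysis was possible because replicate numbers pair no mice across states, apart from the batch block and the within-batch ratios, which set mice of batches 1 and 2 side by side.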

Other observations

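Agrp varied widely between libraries of 1 mouse. Over all barcodes it stood at 3.40, 26.6 and 63.4 CPM in the libraries of food-deprived replicate 2, at 2.86, 29.9 and 73.7 CPM in those of normal replicate 3, and at 1.98 and 52.4 CPM in those of normal replicate 4. In food-deprived replicate 1, 4 libraries spanned 76.9 to 163 CPM. Barcodes with no cluster name held 61 Agrp and 253 Npy UMIs among 2005443 UMIs.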
